A study of Drosophila melanogaster with 6 samples.

Results

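The 10 genes described here are markers of glia, chosen by name with earlier results of these data known: repo, gcm, gcm2, moody, alrm, Gli, wrapper, Eaat1, nrv2 and loco. All 10 were found among the 17753 gene identifiers of each expression table, and all 10 passed the filter on low counts. Drosophila melanogaster of the third larval instar gave 3 biological replicates of eye disc and 3 of antennal disc. The labels give every library the genotype yw;+;+ and name no treatment. Each library held polyadenylated RNA from 30 discs that had been parted by hand into an eye and an antennal portion, so that epithelium, neurons, glia and adhering cells of a portion were measured together. The labels do not say whether replicates of equal number came from the same larvae or day, and p-values measure the spread between these samples.

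Glia are the support cells of the nervous system. Those of the eye disc enter through the optic stalk, spread over the basal side of the disc as photoreceptors form, and wrap the photoreceptor axons on their way to the brain. gcm and its relative gcm2 encode zinc-binding transcription factors that start glial fate, repo encodes a homeodomain factor kept on in nearly all lateral glia, and the other members act in particular glial layers. The surface layers form the blood-brain barrier, sealed by septate junctions, which epithelia of the discs also build.

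The libraries held 17583649 to 29093995 estimated counts, with eye disc replicate 2 the lowest. In CPM (the usual per-million scale, after TMM normalisation), 3 counts came to between 0.1 and 0.192, a floor that covers counting error only. Of 9901 genes tested, 2610 (26.4%) were called in either direction by the edgeR quasi-likelihood test at a Benjamini-Hochberg adjusted p under 0.05. The eye genes eya, so, ey and gl summed to between 1003 and 1116 CPM in eye disc libraries and to between 74.9 and 105 CPM in antennal disc libraries. For Dll, ss and disco-r, genes of the antenna, the sums were 42.7 to 64.7 and 507 to 631 CPM. 2 eye disc libraries stood apart in other cell types' genes, though each carried the eye genes. In replicate 2, the fat body genes Fbp1, Lsp1gamma and Lsp2 summed to 19344 CPM, against 4465 and 5663 in replicates 1 and 3. Replicate 3 was high in neuronal genes, whose sum was 1070 CPM against 751 and 613 in replicates 1 and 2. Most of these genes differed less than fne, which encodes an ELAV-type RNA-binding protein and was at 88.5 CPM against 16.4 and 7.09. For elav the values were 241 CPM against 209 and 148.

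Most of the listed glial genes were called higher in eye disc, in a list chosen with earlier results of these data known. Of the 10, 9 were called higher in eye disc, 0 were called higher in antennal disc and 1, Eaat1, stayed without a call in that edgeR test over all 9901 genes. Among all tested genes 14.6% were called higher in eye disc. The lowest eye disc library lay above the highest antennal disc library for all 10 members, as it did for 23.4% of all tested genes. The median log2 fold change of the members, eye disc over antennal disc, was 2.53, beside 0.00 for all tested genes. Neuronal markers moved the same way between the tissues: 7 of 8 were called higher in eye disc with a median log2 fold change of 3.36, and their sum was 751, 613 and 1070 CPM in eye disc and 102, 95.0 and 105 CPM in antennal disc replicates 1, 2 and 3. In bulk libraries, fewer cells of a type and less RNA per cell cannot be told apart.

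**Figure D1:**
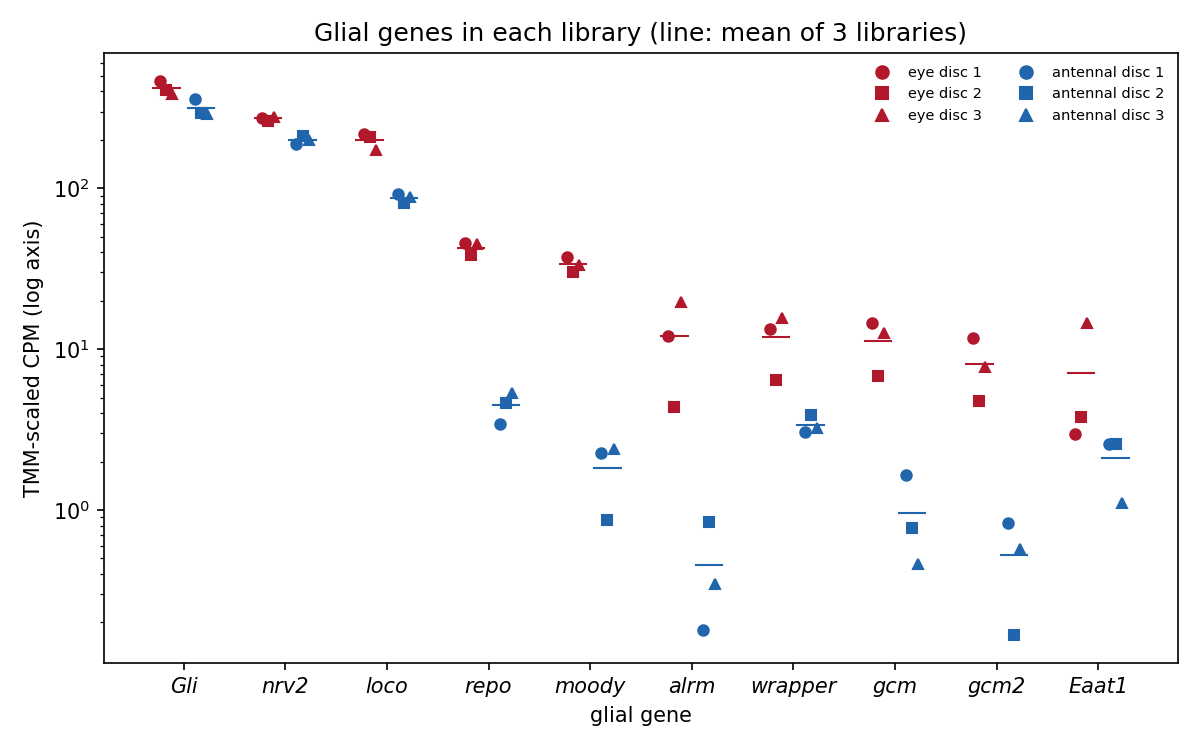
Each point is the TMM-scaled CPM (log axis) of a glial gene in 1 library, with eye disc in red, antennal disc in blue and a line at the mean of 3 libraries. Every eye disc point lies above every antennal disc point of the same gene, by the smallest margin for Gli, nrv2 and Eaat1 and by the widest for repo and moody.

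repo (FBgn0011701, 3R, 18236192 to 18239602 in dm6, plus strand) was at 45.4, 38.3 and 44.7 CPM in eye disc replicates 1, 2 and 3, and at 3.44, 4.61 and 5.37 CPM in antennal disc replicates 1, 2 and 3. The groups stood far apart, and even the lowest antennal library held 96 counts of repo. The means were 42.8 ± 3.92 CPM (SD, n = 3) and 4.47 ± 0.972 CPM (SD, n = 3). This gave a log2 fold change of 3.26 ± 0.18 (SE), with an adjusted p of 9.00e-05 in the edgeR quasi-likelihood test. In eye disc, repo varied by 1.19-fold between the libraries. The last 183 of its bases lie under CG7156 on the other strand, and its estimated counts were whole numbers in all 6 libraries (tolerance 0.001). CG7156 was at 22.4 ± 1.95 against 19.5 ± 0.862 CPM and was not called (edgeR adjusted p = 0.145). With all reads of both genes summed the log2 fold change was 1.44 (edgeR adjusted p = 9.60e-05). Such a sum lowers the fold change however reads in the overlap were assigned.

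gcm and gcm2 lie 26.8 kb apart on chromosome 2L. gcm (FBgn0014179, 9579498 to 9581745, minus strand) was at 14.4, 6.77 and 12.6 CPM in eye disc and at 1.65, 0.769 and 0.460 CPM in antennal disc replicates 1, 2 and 3. Eye disc replicate 2 was the lowest of its group and still above each antennal disc library. With means of 11.3 ± 4.01 and 0.959 ± 0.616 CPM (SD, n = 3), the log2 fold change of gcm was 3.55 ± 0.55 (SE, edgeR adjusted p = 0.00562). Without antennal disc replicate 1 the value for gcm was 4.17 (edgeR adjusted p = 0.00616), and without antennal disc replicate 3 it was 3.22 (adjusted p = 0.0197). The highest adjusted p with 1 library left out was 0.0352 in the same edgeR test, without antennal disc replicate 2. gcm also acts in blood cells, and the hemocyte markers moved the same way but by less. Of these, 5 of 6 were called higher in eye disc, beside 14.6% of all tested genes. Their median log2 fold change was 0.91, against 3.55 for gcm. The sum of the hemocyte markers ran from 515 to 682 CPM in eye disc and from 266 to 361 CPM in antennal disc. The part of blood cells in the difference of gcm was not tested. CG31709 overlaps 141 bases of gcm on the same strand, and summed with it gcm differed by 3.54 (edgeR adjusted p = 0.00493).

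gcm2 (FBgn0019809, 9608562 to 9612706, plus strand) was at 11.8, 4.73 and 7.77 CPM in eye disc and at 0.824, 0.167 and 0.575 CPM in antennal disc replicates 1, 2 and 3. In eye disc the libraries had the same order as for gcm, with replicate 1 highest and replicate 2 lowest. The antennal values rest on 23, 5 and 15 counts, so that replicate 2 lay close to the floor of 3 counts. Its log2 fold change was 3.95 ± 0.65 (SE, edgeR adjusted p = 0.00658). The counts of gcm exceeded those of gcm2 in eye disc by 1.23-fold, 1.43-fold and 1.62-fold, and in antennal disc the counts of gcm and gcm2 were 46 and 23, 23 and 5, and 12 and 15 in replicates 1, 2 and 3. Both genes had whole-number estimated counts in all 6 libraries (tolerance 0.001).

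The 4 members known from the blood-brain barrier ranged from the large difference of moody through loco to the small ones of nrv2 and Gli. moody (FBgn0025631, X, 2044292 to 2050120, minus strand) encodes a G protein-coupled receptor of the subperineurial layer. It was at 37.3, 30.3 and 33.5 CPM in eye disc and at 2.26, 0.869 and 2.38 CPM in antennal disc replicates 1, 2 and 3. The spread in eye disc was small, with a highest to lowest ratio of 1.23. The log2 fold change of moody was 4.20 ± 0.38 (SE, edgeR adjusted p = 0.000843). Its span lies wholly inside that of CG4313 on the other strand, without a shared exon base, and its estimated counts were fractional in every library. CG4313 itself was at 18.8 ± 1.31 against 16.6 ± 1.06 CPM and was not called (edgeR adjusted p = 0.202), and the 2 genes summed gave a log2 fold change of 1.51 (edgeR adjusted p = 0.000164). Adding a gene so nearly even between the tissues lowers the fold change however shared reads were split.

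loco (FBgn0020278, 3R, 22619968 to 22639387, minus strand), a regulator of G protein signalling that acts with Moody and is a target of Gcm, was at 218, 209 and 173 CPM in eye disc and at 92.2, 80.6 and 88.0 CPM in antennal disc replicates 1, 2 and 3. Its means were 200 ± 24.0 and 86.9 ± 5.87 CPM (SD, n = 3). The tissues did not overlap, yet antennal disc kept 43.5% of the eye disc level. Antisense transcripts cover 8.24% of its span. The log2 fold change of loco was 1.20 ± 0.10 (SE, edgeR adjusted p = 0.000499).

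Gli (FBgn0001987, 2L, 15756002 to 15762758, minus strand) encodes Gliotactin, a transmembrane protein of the corners where 3 cells meet, in glia and in epithelia. Its level was 466, 410 and 383 CPM in eye disc and 360, 294 and 288 CPM in antennal disc replicates 1, 2 and 3. The lowest eye disc and the highest antennal disc values were close neighbours. Gli had a log2 fold change of 0.42 ± 0.11 (SE, edgeR adjusted p = 0.0380), and its call was lost in more of the fits than that of any other member. This happened without eye disc replicate 1 (0.33, adjusted p = 0.0880), eye disc replicate 2 (0.44, adjusted p = 0.0629), and in antennal disc without replicate 2 (0.37, adjusted p = 0.132) or 3 (0.36, adjusted p = 0.138), in the same edgeR test. Library totals in place of TMM also ended it (0.38, edgeR adjusted p = 0.0812).

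nrv2 (FBgn0015777, 2L, 6789770 to 6798862, minus strand), a beta subunit of the sodium-potassium ATPase found in septate junctions and in glia, differed by about as much as Gli. Eye disc libraries held 274, 263 and 279 CPM, and antennal disc libraries 187, 212 and 200 CPM. With SDs of 8.42 and 12.6 CPM around means of 272 and 200 CPM, nrv2 was the most even member in eye disc. The log2 fold change was 0.44 ± 0.06 (SE, edgeR adjusted p = 0.00357), and the call held in all 6 fits that left out 1 library. With limma on log2(TPM + 1), where the median of all genes shifted to -0.18, neither Gli (0.21, adjusted p = 0.696) nor nrv2 (0.23, adjusted p = 0.674) was called, although both lay above that median, by 0.39 and 0.41. With log2(TPM + 0.1) they were not called either (Gli 0.21, limma adjusted p = 0.689; nrv2 0.23, limma adjusted p = 0.666).

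wrapper (FBgn0025878, 2R, 22379637 to 22382675, plus strand) encodes an immunoglobulin-domain protein of glia that enwrap axons and cell bodies. It was at 13.4, 6.45 and 15.7 CPM in eye disc and at 3.05, 3.88 and 3.22 CPM in antennal disc replicates 1, 2 and 3. The antennal libraries were close to each other, while eye disc replicate 2 was well under replicates 1 and 3. The log2 fold change of wrapper was 1.81 ± 0.35 (SE, edgeR adjusted p = 0.0115). Without antennal disc replicate 3 it was 1.77 and not called (edgeR adjusted p = 0.0568), and without eye disc replicate 3 it was 1.54 (edgeR adjusted p = 0.0291).

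alrm (FBgn0039332, 3R, 25381065 to 25382781, minus strand), a leucine-rich repeat gene of astrocyte-like glia, had the largest fold difference and one of the widest spreads. Its values in eye disc were 12.0, 4.34 and 19.8 CPM, a highest to lowest ratio of 4.55, and in antennal disc 0.179, 0.836 and 0.345 CPM. Antennal disc replicate 1 held 5.40 estimated counts, not far above the floor of 3. alrm differed by 4.71 ± 0.80 on the log2 scale (SE, edgeR adjusted p = 0.00863), by 4.14 without eye disc replicate 3 (adjusted p = 0.0176) and by 5.50 with antennal disc replicate 2 left out (adjusted p = 0.0192). This single-exon gene lies wholly inside the span of Fur1, on the same strand and outside its exons, and its estimated counts were fractional in all 6 libraries. Fur1 was even between the tissues (63.6 ± 2.78 against 61.9 ± 1.76 CPM, edgeR adjusted p = 0.650). Summed with Fur1, the values were 73.2, 67.3 and 86.4 against 60.1, 63.1 and 63.7 CPM, without a call (log2 fold change 0.28, edgeR adjusted p = 0.0811). Adding an even gene of higher level lowers the fold change however shared reads were split. The sum therefore cannot show whether reads of Fur1 were counted for alrm.

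Eaat1 (FBgn0026439, 2L, 9333567 to 9341925, plus strand), a glutamate transporter of glia, was the member without a call. It was at 2.97, 3.77 and 14.5 CPM in eye disc and at 2.58, 2.57 and 1.11 CPM in antennal disc replicates 1, 2 and 3. One library, eye disc replicate 3, raised the eye disc mean of 7.08 ± 6.44 CPM (SD, n = 3), and replicates 1 and 2 were just above the antennal libraries. Eaat1 had a log2 fold change of 1.76 ± 0.71 (SE, edgeR adjusted p = 0.121), and 0.67 without eye disc replicate 3 (adjusted p = 0.339). DESeq2 called Eaat1 at a log2 fold change of 1.77 (adjusted p = 0.0392).

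**Figure D2:**
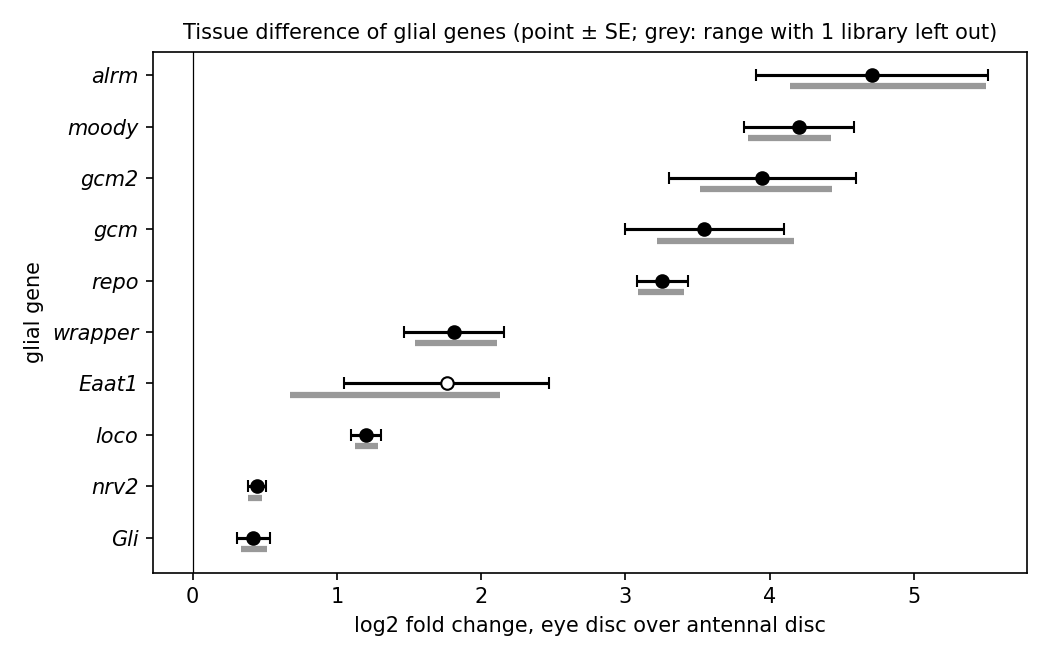
Log2 fold change of each glial gene, eye disc over antennal disc, as a point with its SE (filled where the edgeR adjusted p was under 0.05, open for Eaat1), and the range of the 6 fits that left out 1 library in grey. The values run from 0.42 for Gli to 4.71 for alrm, and the grey range of Eaat1 reaches down to 0.67.

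The antennal disc level as a percentage of the eye disc mean ranked the members. It was 3.77% for alrm, 5.44% for moody, 6.45% for gcm2, 8.51% for gcm and 10.5% for repo. Then came wrapper with 28.6%, Eaat1 with 29.5% and loco with 43.5%, and last nrv2 with 73.5% and Gli with 74.7%. The place of Eaat1 rested on eye disc replicate 3, without which it stood at 62.0%, above loco. Without that library alrm stood at 5.55%, above moody at 5.43%. Measured in the same way, the eye genes gl, eya, ey and so stood at 4.50%, 8.52%, 11.0% and 11.6% in antennal disc. moody, gcm2, gcm and repo thus lay between gl and so, and alrm lay below gl. Whether their antennal reads came from eye tissue carried over at the parting was not tested.

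**Figure D3:**
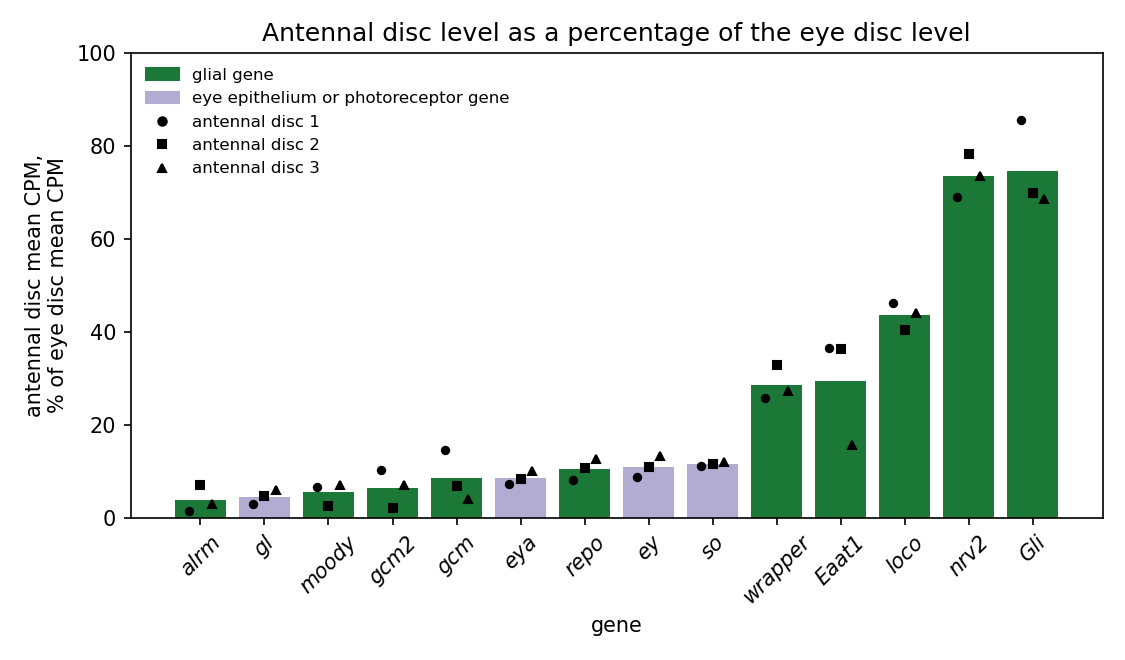
Bars give the mean antennal disc CPM of a gene as a percentage of its mean eye disc CPM, in green for the 10 glial genes and in violet for 4 genes of the eye, with each antennal disc library as a black point. alrm, moody, gcm2, gcm and repo lie at or under 10.5%, close to the eye genes, and the bars of nrv2 and Gli reach 73.5% and 74.7%.

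Set against repo within each library, 4 members overlapped between the tissues and 5 did not. The share of all genes without overlap on this measure was not computed. repo itself differed by 3.26 on the log2 scale, so a gene even between the tissues would also have a shifted ratio. The log2 ratio of gcm to repo averaged -1.94 ± 0.42 (SD, n = 3) in eye disc and -1.83 ± 0.88 in antennal disc. For gcm2 the averages were -2.41 ± 0.50 and -2.32 ± 0.69, and for alrm -2.01 ± 0.93 and -2.42 ± 0.44. For Eaat1 they were -2.83 ± 1.11 and -0.98 ± 0.79, a difference of -1.85. The exact permutation p-values of gcm, gcm2, alrm and Eaat1 were 1, 0.9, 0.6 and 0.2 (two-sided, 3 against 3). A p of this size does not show that the proportions were equal.

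Of the 5 without overlap, 4 had the higher proportion to repo in antennal disc. Their smaller log2 fold changes, 0.42 for Gli, 0.44 for nrv2, 1.20 for loco and 1.81 for wrapper beside 3.26 for repo, already set that direction. That of moody was 4.20. For Gli the log2 ratio to repo was 3.35, 3.41 and 3.09 in eye disc and 6.51, 5.85 and 5.62 in antennal disc replicates 1, 2 and 3, a difference of -2.71. nrv2 differed by -2.69, loco by -1.95 and wrapper by -1.55. moody had a ratio to repo that was higher in eye disc (-0.34 ± 0.07 against -1.15 ± 0.70, SD, n = 3), by 0.81. The exact two-sided permutation test gave p = 0.1 for Gli, nrv2, loco, wrapper and moody, the smallest that this test can give with 3 against 3, and 0.18 after Benjamini-Hochberg adjustment over the 9 comparisons.

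**Figure D4:**
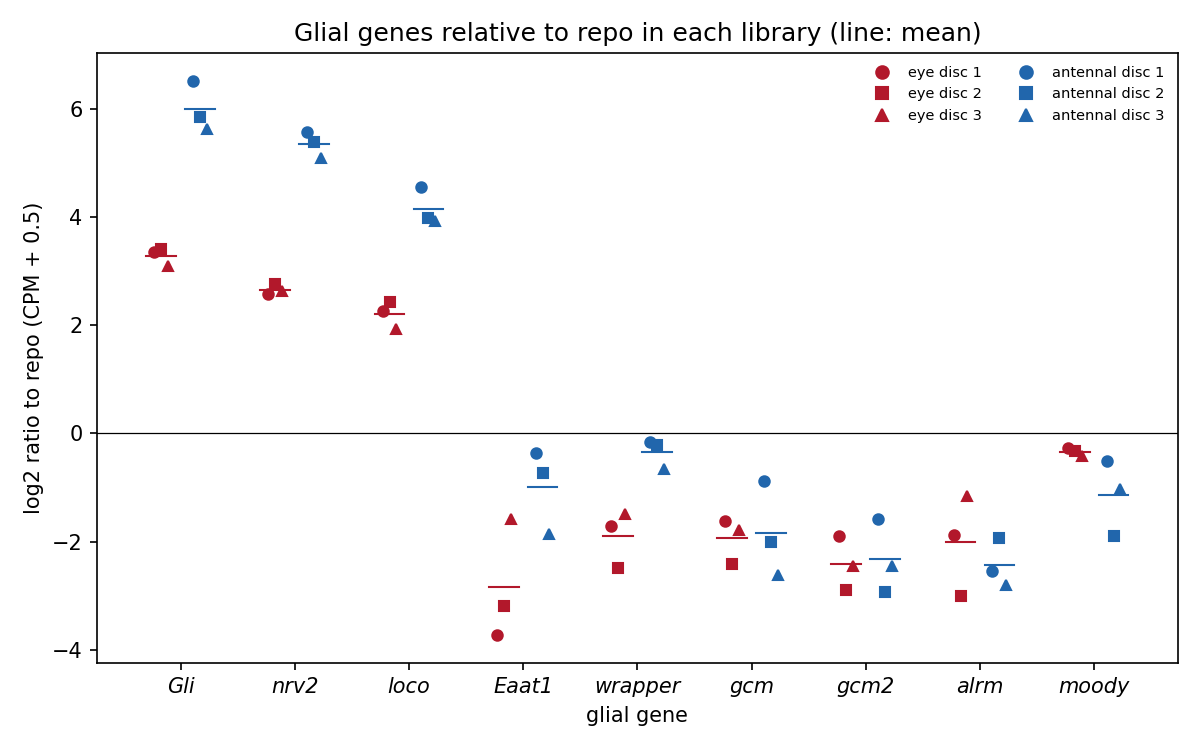
Log2 ratio of each glial gene to repo in each library (CPM with 0.5 added), with eye disc in red, antennal disc in blue and a line at the mean of 3 libraries. Gli, nrv2, loco and wrapper lie higher relative to repo in every antennal disc library, while gcm, gcm2, alrm and Eaat1 overlap between the tissues.

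Levels of different genes were compared per kilobase of annotated exon. In eye disc, Gli was at 94.0 ± 9.52 CPM per kb (SD, n = 3), followed by nrv2 at 76.2 ± 2.36, loco at 26.0 ± 3.13 and repo at 14.3 ± 1.31 CPM per kb, and no neighbours among these 4 overlapped. Below repo came moody at 8.56 ± 0.881, alrm at 7.01 ± 4.49, wrapper at 5.99 ± 2.43, gcm at 5.19 ± 1.84, gcm2 at 3.48 ± 1.52 and Eaat1 at 2.26 ± 2.05 CPM per kb, where each overlapped the next. In antennal disc the first 3 kept their order, at 70.2 ± 8.96, 56.0 ± 3.53 and 11.3 ± 0.766 CPM per kb. wrapper (1.71 ± 0.222) and repo (1.49 ± 0.324) overlapped there, and the other 5 members were at 0.665 CPM per kb or less. In the deposited TPM, which divide by the whole gene span, repo stood above loco in eye disc, at 27.5 ± 9.22 against 21.0 ± 5.40 TPM.

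The eye disc libraries differed from each other far more in some members than in others. Eaat1 had a highest to lowest ratio of 4.88, alrm of 4.55, gcm2 of 2.49, wrapper of 2.43 and gcm of 2.13. The ratio was at most 1.26 for loco, moody, Gli, repo and nrv2. Of the 5 uneven genes, alrm, wrapper, gcm and gcm2 were lowest in replicate 2, and alrm, wrapper and Eaat1 were highest in replicate 3. Some other genes were highest in replicate 3. The transporter gene Eaat2 was at 7.55, 4.92 and 24.1 CPM, Obp44a at 344, 155 and 543 CPM, and pros at 87.9, 56.9 and 267 CPM in replicates 1, 2 and 3. Their lists did not move as a whole. Among astrocyte-like and ensheathing genes, Gat and axo were also highest in replicate 3, but e, drpr and fabp in replicate 1 and Gs2 and ced-6 in replicate 2. Of the glial fate regulators, ttk, retn and zfh1 were highest in replicate 1 and pnt in replicate 2. All 8 neuronal markers were at their highest in replicate 3, and lowest in replicate 2 except Syt1 and Rbp9, which were lowest in replicate 1. The 4 neuroblast markers, among them ase, wor and mira, summed to 72.9, 37.6 and 72.8 CPM, low in replicate 2 and alike in replicates 1 and 3. The part of neuronal or brain tissue in the spread of alrm, Eaat1 and wrapper was not tested. repo itself was at 45.4 CPM in replicate 1 and 44.7 CPM in replicate 3.

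**Figure D5:**
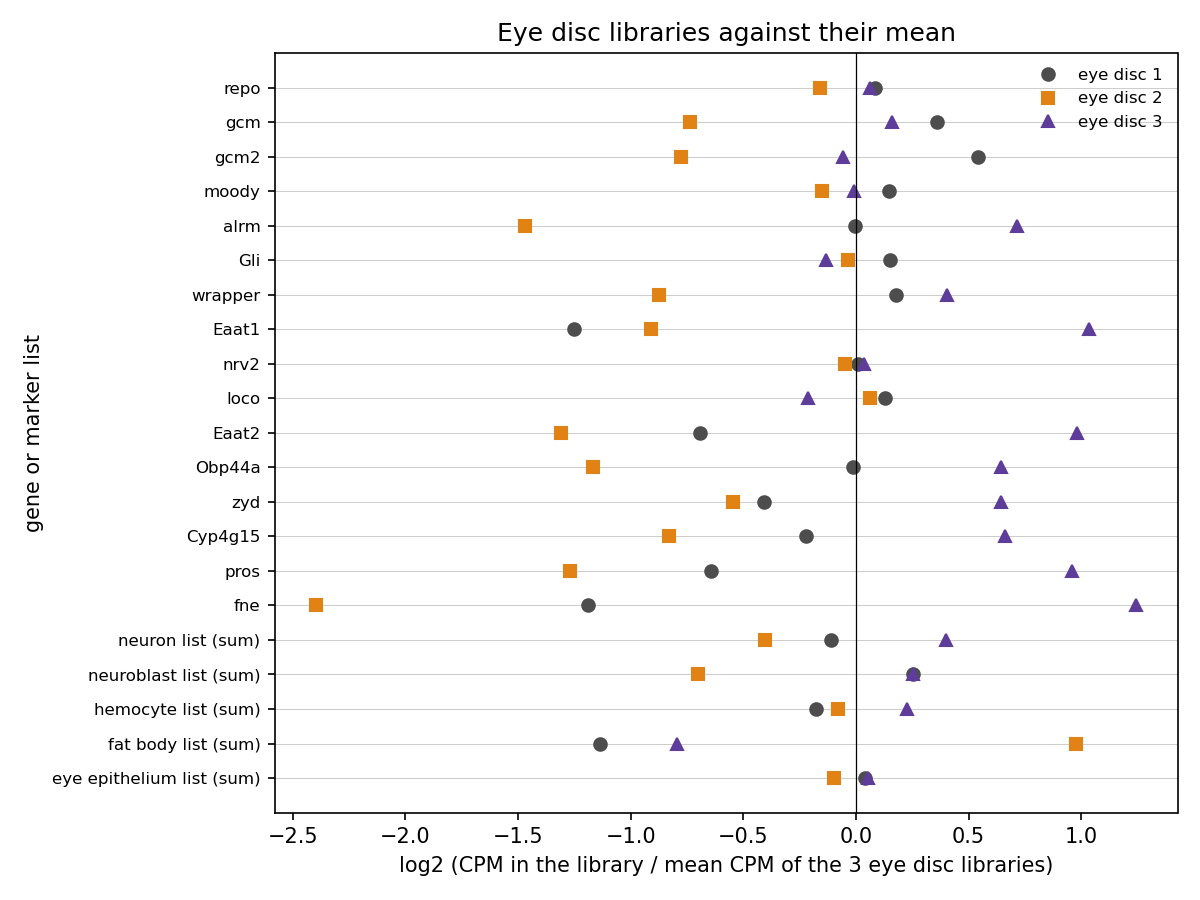
Log2 ratio of each eye disc library to the mean of the 3, for the 10 glial genes, 6 other genes and the sums of 5 marker lists. repo, moody, Gli, nrv2 and loco stay near 0 in each library, whereas alrm, Eaat1 and wrapper are high in replicate 3 together with Eaat2, pros, fne and the neuronal sum, and fat body genes are high in replicate 2. The 6 other genes shown are each highest in replicate 3, which does not hold for all genes of the glial lists.

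Other genes known from glia followed in part. Of 45 listed, 43 matched an identifier, 42 were tested, 19 had a call towards eye disc, 2 towards antennal disc and 21 none, with a median log2 fold change of 0.43. Of all tested genes, 14.6% were called higher in eye disc and 11.7% higher in antennal disc. Photoreceptors and other cells of the eye disc also use several of these genes, among them pros, svp and pnt.

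Of 5 regulators of glial fate, 4 were called higher in eye disc and ttk, a repressor of neuronal fate, was called lower (-0.31, edgeR adjusted p = 0.0446). The call of ttk was lost in 5 of the 6 edgeR fits with a library left out, all but that without eye disc replicate 1, at -0.25 to -0.36. retn, the dead ringer gene, which acts in longitudinal glia and in photoreceptor axon growth, was at 113 ± 3.66 against 19.7 ± 1.37 CPM (log2 fold change 2.53, edgeR adjusted p = 1.11e-05). pnt, an ETS factor needed for glia and photoreceptors, was at 138 ± 2.16 against 55.9 ± 1.39 CPM (1.30, edgeR adjusted p = 2.19e-05). With limma on log2(TPM + 0.1) pnt was not called (1.06, adjusted p = 0.0571). pros, a homeodomain factor of neural lineages, had a log2 fold change of 3.04 (edgeR adjusted p = 0.0260), which was 2.10 without eye disc replicate 3 (adjusted p = 0.00337). A block for replicate number ended the call of pros (2.72, adjusted p = 0.0640), as did leaving out antennal disc replicate 1 (3.15, adjusted p = 0.0785), 2 (2.94, adjusted p = 0.0901) or 3 (3.01, adjusted p = 0.0952). zfh1 differed by 0.73 (adjusted p = 0.0182), and its call ended without antennal disc replicate 2 (0.71, adjusted p = 0.0746) or 3 (0.63, adjusted p = 0.0718).

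Most listed genes of the barrier differed little. Of 15, 4 had a call towards eye disc and 11 had none, with a median log2 fold change of 0.01. svp, which encodes a nuclear receptor used in glia and photoreceptors, was at 51.8, 59.1 and 58.1 CPM in eye disc and at 8.10, 6.12 and 6.48 CPM in antennal disc (3.03, edgeR adjusted p = 4.15e-05). The drug transporter gene Mdr65 was at 12.5 ± 2.94 against 5.10 ± 1.21 CPM (1.29, edgeR adjusted p = 0.0129). Leaving out antennal disc replicate 2 ended that call at 1.33 (adjusted p = 0.0510). Atpalpha, the catalytic partner of Nrv2, differed by 0.44 (adjusted p = 0.00247), the same log2 value to 2 decimals as nrv2, and Nrg differed by 0.25 (adjusted p = 0.0257). The call of Nrg was lost without eye disc replicate 3 (0.21) and without antennal disc replicate 1 (0.20), 2 (0.24) or 3 (0.28). The septate junction genes Nrx-IV, Cont, cora, sinu, kune, Mcr, Tsf2, bou and pck were not called, with log2 fold changes of -0.09 to 0.09, and the sign of Nrx-IV, Cont, cora, Mcr and Tsf2 changed with the processing. Lac, at 415 ± 37.8 against 499 ± 53.5 CPM, was not called (-0.26, edgeR adjusted p = 0.104) in the main test but was called once replicate number entered as a block (adjusted p = 0.0183) and by DESeq2 (-0.27, adjusted p = 0.0351).

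Of 6 tested genes of the perineurial, wrapping and cortex layers, 4 were called higher in eye disc. The matrix metalloproteinase gene Mmp2 was at 234 ± 14.1 against 24.1 ± 5.01 CPM (log2 fold change 3.28, edgeR adjusted p = 6.58e-05). zyd, a calcium exchanger of cortex glia, differed by 1.97 (adjusted p = 0.0206). Its call ended without antennal disc replicate 1 (1.77, adjusted p = 0.0710) or 2 (1.85, adjusted p = 0.0869). Cyp4g15 differed by 1.95 (adjusted p = 0.0232), and leaving out antennal disc replicate 1, 2 or 3 ended that call (1.80, 1.99 and 2.03, highest adjusted p = 0.0837). Ddr, a collagen receptor of wrapping glia, differed by 0.56 (adjusted p = 0.0128) and was likewise not called without antennal disc replicate 1 (0.54), 2 (0.56) or 3 (0.56, highest adjusted p = 0.0586). Tret1-1, a sugar transporter gene wholly covered by another gene, was at 26.7 CPM in eye disc replicate 2 and at 0.287 CPM or 0 in the other 5 libraries, and was not tested.

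Of 9 tested genes of astrocyte-like and ensheathing glia, 4 had a call towards eye disc and 5 had none. Eaat2 differed by 3.65 (edgeR adjusted p = 0.0112), by 2.67 without eye disc replicate 3 (adjusted p = 0.00508) and by 3.58 without antennal disc replicate 3, where it was not called (adjusted p = 0.0585). axo was at 14.6 ± 2.73 against 4.45 ± 1.61 CPM (1.71, adjusted p = 0.00687). The call of axo held in all 6 fits with a library left out. It ended with limma on log2(TPM + 1) (0.36, adjusted p = 0.294) and on log2(TPM + 0.1) (1.14, adjusted p = 0.130). Obp44a differed by 2.30 (adjusted p = 0.0593) and was called without eye disc replicate 2 (2.66, adjusted p = 0.0377) and by DESeq2 (adjusted p = 0.00247). The glutamine synthetase gene Gs2 was at 144, 341 and 112 CPM in eye disc and overlapped the antennal disc range of 77.7 to 119 CPM. The GABA transporter gene Gat, at 3.65 ± 0.538 against 2.27 ± 0.523 CPM, was not called (adjusted p = 0.140).

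Of 7 genes of growth factor signalling to retinal glia, 3 were called higher in eye disc, Egfr was called lower (-0.23, edgeR adjusted p = 0.0365) and 3 had no call. The call of Egfr held without antennal disc replicate 2 and was lost on leaving out any of the other 5 libraries, at -0.21 to -0.24. ths, which encodes an FGF ligand made by photoreceptors, was at 61.4, 58.7 and 70.1 CPM in eye disc and at 21.2, 15.3 and 14.8 CPM in antennal disc (log2 fold change 1.89, edgeR adjusted p = 0.000522). The other FGF ligand gene, pyr, differed by 0.48 (adjusted p = 0.0200), and its call was lost without eye disc replicate 3 (0.47, adjusted p = 0.0513) and, in antennal disc, without replicate 2 (0.40, adjusted p = 0.0775) or 3 (0.44, adjusted p = 0.0860). htl, the FGF receptor gene of glia, was at 12.2 ± 2.42 against 8.30 ± 0.804 CPM and was not called (0.56, adjusted p = 0.0669), but was called without eye disc replicate 2 (0.71, adjusted p = 0.0234) and by DESeq2 (adjusted p = 0.0328). stumps, its adaptor, differed by 0.68 (adjusted p = 0.0390) and its call held only when the library left out was antennal disc replicate 1 (0.86). Leaving out any of the other 5 gave 0.52 to 0.71, without a call.

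The genes whose profile over the 6 libraries was nearest to that of repo were not among the glial genes listed. Likeness was the root mean square difference of log2 CPM, each gene centred on its own mean. chp, a photoreceptor adhesion gene, came first with 0.06, at 190, 170 and 177 CPM in eye disc and 14.9, 20.8 and 22.2 CPM in antennal disc. Schip1 (0.06), ey (0.08), CG32032 (0.09), Gbeta5 (0.11) and Lip4 (0.12) followed, and none of these 6 overlaps another gene. Of the other glial members moody was the nearest, with 0.71 and rank 469 among 9900 genes. The 6 libraries fall into 2 tissues, so a gene with a like tissue difference and little spread within a tissue has a short distance.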

How the data were processed

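The tables deposited by the authors hold estimated counts and TPM per gene, in the kallisto layout per the file headers. kallisto, FastQC, bedtools and dm6 are named in the submitters' processing notes; the strand setting and versions are, in the sources used here, not given. Listed length in bases equals the gene span, introns included, for 99.3% of multi-exon genes and all 10 members, so reads in overlapping spans can be shared between genes. The region files hold none of the members and were not used. Symbols and coordinates came from Ensembl BDGP6 (dm6 coordinates), which matched 17622 of 17753 identifiers.

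Rounding of the estimated counts, filterByExpr and TMM scaling were followed by edgeR's robust quasi-likelihood test without covariates (edgeR 4.0.16, R 4.3.3). Its p-values were Benjamini-Hochberg adjusted over 9901 genes. The SE is the absolute log2 fold change over the square root of F. Alternatives used DESeq2 1.42.0, limma 3.58.1, other scalings and filters, a replicate block, each library left out, and sums over overlapping genes. Ratios to repo used CPM + 0.5 and an exact permutation test (scipy 1.17.1), and plots matplotlib 3.10.9. Replicates differed beyond sampling noise (chi-square per degree of freedom 15.4 to 335). Samples of equal number deviated together (correlation across genes 0.415, 0.308 and 0.242 for numbers 1, 2 and 3). Whether this marks a pairing is not known. The labels do not give one, and the main test and the permutation tests treated the samples as unpaired. On simulated counts for the 9901 genes, 200 were changed and no replicate effect was added. There edgeR called 60% of the 2-fold and 75% of the 4-fold changes. Of its 147 calls 8.16% were false, against 23.5% of 204 calls by DESeq2 and 12.1% of 149 with the block. In the data 2610 genes were called, so these false shares hold for the simulated setting only and do not judge the block.

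The members and gene lists were chosen with earlier results of these data known. Named genes were the 10 members, the up to 4 tested genes per glial list with the largest absolute log2 fold change, the 6 genes nearest to repo and genes overlapping a member; ttk, Egfr, Nrg, Gat, gl, Tret1-1, fne and the septate junction genes were named after their values were seen. The listed symbols Oaz and naz were not analysed here.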

Additional observations from a re-analysis of the deposited data

How the results depend on the processing

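No log2 fold change of a member reversed under any of the 145 alternative values computed, and 133 kept their side of the threshold; those that did not are given with Gli, nrv2, wrapper, alrm and Eaat1 in the report. Between 7 and 10 members were called, all higher in eye disc: 7 by limma on log2(TPM + 1) or log2(TPM + 0.1), 8 with library totals, 10 by DESeq2, and 7 to 9 with 1 library left out. DESeq2 had the highest false share on simulated counts, a share that holds for the simulated setting only. With the replicate number as a block 3011 genes and 9 members were called, and among the members and 42 other genes refitted this block ended the call of pros, gave that of Lac and changed no other. Over all genes 1202 were called by limma on log2(TPM + 1) and 1248 on log2(TPM + 0.1), with median log2 fold changes of -0.18 and -0.20, against 2610 in the main test. Calls towards eye and antennal disc were split 858 to 344 and 909 to 339 there, and 1449 to 1161 in the main test. With 1 library left out, between 1467 and 2514 genes were called, the fewest without antennal disc replicate 3 and 1515 without antennal disc replicate 2. For the 42 other genes, of which 16 were added after seeing the data, 64 of 588 alternative values lost a call, 6 gained one and 25 reversed, all 25 of them in genes without a call. At most 11 genes lost their call under 1 alternative, limma on log2(TPM + 0.1). With limma on log2(TPM + 1) and log2(TPM + 0.1), where all genes shifted down, the reversed values were -0.187 and -0.189 for Nrx-IV, -0.167 and -0.169 for cora, -0.127 and -0.128 for Mcr, -0.202 and -0.204 for Tsf2, -0.016 and -0.0343 for CG4313, -0.0801 and -0.158 for Fur1, and -0.0103 and -0.0136 for CG7156. With library totals they were -0.0173 for Nrx-IV, -0.00272 for cora, -0.0377 for Tsf2 and -0.00508 for Fur1, and without a filter -0.00728 for Tsf2. Leaving out 1 library gave -0.0162 to 0.0597 for Nrx-IV, -0.0413 to 0.0258 for Tsf2, -0.00704 to 0.0613 for Fur1 and -0.0509 to 0.00259 for Cont. The difference in log2 ratio to repo stayed below 0 for Gli, nrv2, loco, wrapper and Eaat1 and above 0 for moody in all 8 alternatives, and it took both signs for gcm (-0.50 to 0.37), gcm2 (-0.40 to 0.55) and alrm (-0.01 to 1.14). Depth limits gcm2 and alrm in antennal disc, where single libraries held 5 or 5.40 counts.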
